A study of Ovis aries with 24 samples.

Results

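Supraspinatus (SS), a shoulder muscle, was compared between callipyge (CN) and wild-type (NN) lambs at T12, the code for 11 to 12 weeks of age, with 2 arrays for each genotype. The measured features were probe sets, the groups of short DNA probes that report 1 transcript each on a bovine Affymetrix GeneChip hybridised with sheep RNA. Those with a signal of at least 200 on both arrays of CN or of NN were used. They numbered 5303 of 24016 features other than controls. Of them 4699 reached the minimum in both genotypes, 288 in CN alone and 316 in NN alone. Just inside the minimum the lower array of the brighter genotype read 200, and just outside it 199.9. There were 152 features within 10 signal units above the minimum and 202 within 10 below it. A single gene symbol was paired with 3849 of the 5303 features, which covered 3292 symbols, while 28 had several symbols and 1426 had none.

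The 4 arrays belong to a series of 24, which form 12 groups of 2. The lambs came from a cross of Dorset, Suffolk and Rambouillet sheep. CN is the paternal heterozygote, which inherits the callipyge allele from its father, and NN carries no callipyge allele. The series also holds longissimus dorsi (LD), a loin and back muscle, in CC, CN, NC and NN lambs at birth (T0) and at T12. The muscles coded SM and ST were taken from NN lambs at T12. The T12 labels also contain the word birth, and the age code and the age field were used.

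The callipyge mutation lies in an imprinted gene cluster, a region in which a gene is read from the copy of 1 parent only. DLK1 and RTL1 in that cluster are read from the paternal copy, and the non-coding RNAs MEG3 and MEG8 from the maternal copy. Enlargement of muscle after birth is known for lambs that inherit the mutation from the father alone. It is most marked in the loin and hind limb and goes with a shift towards fast, glycolytic fibres. The supraspinatus is known as a muscle that does not enlarge, so the comparison asks which transcripts differ between the genotypes in a muscle without the phenotype.

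The labels call the 2 arrays of a genotype technical replicates, so SS gave 1 value for CN and 1 for NN. The labels name no animal for SS. For LD they speak of 8 male lambs, with 4 per genotype. A difference of genotype and a difference between the particular animals or pools therefore cannot be told apart. A p-value for SS needs a spread, which was taken from the 3 genotypes other than CN in LD. That spread holds differences between the 3 genotypes as well as between samples, so it is not that of animals of 1 genotype. SS is assumed to vary like those LD groups, and the standard error (SE) given after ± is that of this limma fit. In bulk tissue, fewer cells of a type and less RNA per cell cannot be told apart.

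The tissue label was checked with muscle markers. On the 4 SS arrays the brightest MYH7 feature, for the slow myosin heavy chain, read 35980 to 42244. ACTA1, skeletal actin, read 32275 to 39244, and CKM, muscle creatine kinase, read 32440 to 33803. The highest signal on an SS array was 37040 to 42244, so these MYH7, ACTA1 and CKM features lie near the top of the measured range. Median signal was 59.7 and 54.0 on the CN arrays and 59.4 and 53.2 on the NN arrays. The log2 ratio of 3' to 5' signal of the GAPDH control, a sign of RNA quality, was -0.03 and 0.09 in CN and 0.02 and 0.06 in NN. The groups overlapped in it.

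No transcript passed the test between CN and NN in SS. Limma with Benjamini-Hochberg adjustment called 0 of 15613 fitted features (0%) at an adjusted p under 0.05. An unadjusted p under 0.05 was reached by 651 features (4.17%). Among the 5303 SS features 143 did so, 71 higher and 72 lower in CN. Leaving out 1 SS array gave calls over all fitted features, 12 without the first CN array, 10 without the second, 10 without the first NN array and 5 without the second. None of these calls was among the 5303 features. The median SE over the 5303 features was 0.26 on the log2 scale. The SS differences below are therefore given as sizes beside the arrays they come from, and "higher" or "lower" names the side on which the CN mean lay.

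The differences between the genotype means were set beside those between repeat arrays of 1 genotype. The CN minus NN log2 difference had its 5th and 95th percentiles at -0.43 and 0.41. Array 1 minus array 2 ran from -0.50 to 0.57 between the same percentiles within CN and from -0.45 to 0.47 within NN. Each genotype difference is a difference of means of 2 arrays, which narrows it relative to a difference of single arrays. These percentiles therefore do not show whether the genotypes differed by more than repeat arrays did. Single arrays of different genotype correlated at r = 0.972 to 0.979 over the 5303 features, against 0.978 within CN and 0.984 within NN. These correlations are over features, which share the arrays and are not independent.

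**Figure D1:**
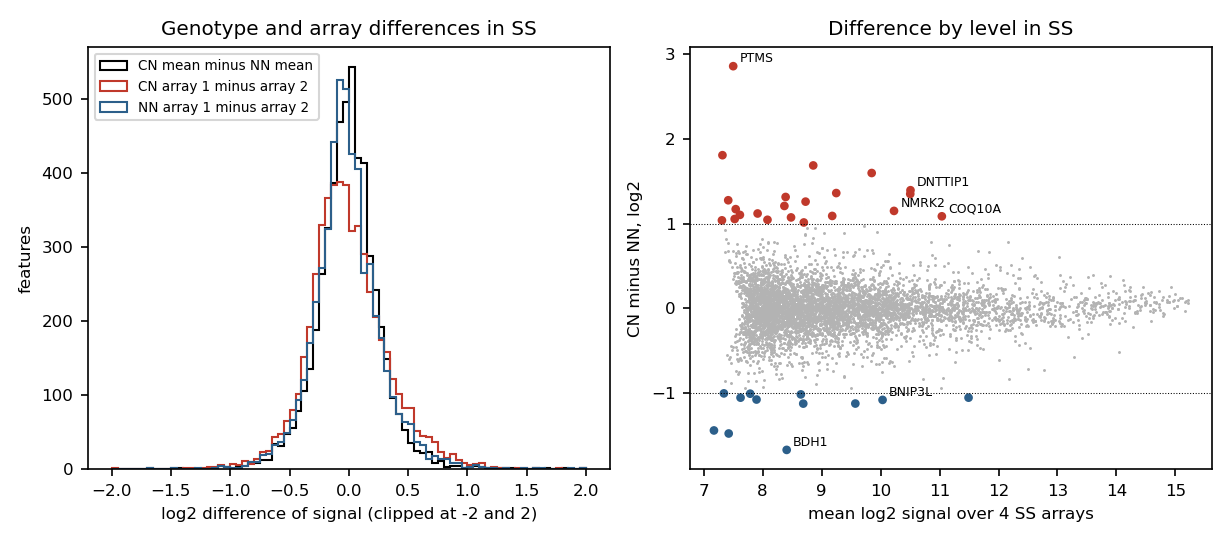
Left, histogram of the log2 difference of signal over 5303 SS features, for the CN mean minus the NN mean (black) and for array 1 minus array 2 within CN (red) and within NN (blue). Right, CN minus NN (log2) against the mean log2 signal of the 4 SS arrays; dotted lines mark a 2-fold difference, and coloured points are the 22 features higher and the 12 lower by at least that much with both arrays of 1 genotype above both of the other.

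A difference of at least 2-fold, with both arrays of 1 genotype above both arrays of the other, was seen for 34 features. CN was higher in 22 (0.415%) and lower in 12 (0.226%). Of the 22, 10 reached the minimum signal in CN alone, and of the 12, 7 did so in NN alone. The same rule, applied in LD at T12 between CN and NN, gave 119 of 5201 features (2.29%). Between NC and NN in LD it gave 44 of 5218 (0.843%), and between CC and NN 64 of 5256 (1.22%). The LD counts share the LD NN arrays. With a minimum signal of 100 the SS count was 104, and with 400 it was 19. Without 1 of the 4 SS arrays it was 41 to 56, the most without the first CN array.

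The genes at the callipyge locus were read first. DLK1, a transmembrane protein of the EGF-repeat family, had CN signals of 1149 and 1295 and NN signals of 1255 and 1180. The arrays of both genotypes overlapped, and the difference was 0.00 ± 0.56, with a 95% interval from -1.22 to 1.23. In LD at T12 the mean DLK1 signal was 9573 in CN, 2818 in CC, 965 in NC and 1044 in NN. There the difference of CN from the other genotypes was 2.76 and passed the test (limma adjusted p = 0.0492). SS CN thus had a DLK1 level of the order of LD NN, and LD CN stood above all the others. LD CN also gave 1 value, so genotype and the animals or pools sampled cannot be told apart there either. The SS difference was smaller than the LD difference by 2.75 ± 0.72, which had an unadjusted p of 0.00284 and did not pass after adjustment (limma adjusted p = 0.594). With CC left out of the LD comparison this difference was -3.25 and passed (limma adjusted p = 0.00209). A second, dimmer DLK1 feature, below the minimum, read 132 and 192 in CN and 117 and 106 in NN.

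MEG3, the maternally read non-coding RNA, had 3 features at the minimum. The brightest read 551 and 545 in CN and 318 and 403 in NN, with no overlap and a difference of 0.61 ± 2.18. The next read 452 and 386 in CN and 377 and 257 in NN, also without overlap, at 0.43 ± 1.17. The other read 344 and 335 in CN and 378 and 267 in NN, and its arrays overlapped. In LD the brightest MEG3 feature had means of 2397 in CN, 12867 in CC, 13032 in NC and 358 in NN. The wide SE of MEG3 in SS comes with this spread among CC, NC and NN. For this feature SS CN lay nearer to the NN groups than to LD CN.

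The neighbours of the cluster were close in both genotypes. PPP2R5C, a regulatory subunit of protein phosphatase 2A, differed by 0.11 ± 0.29. WARS1, the tryptophan transfer RNA synthetase, differed by -0.18 ± 0.23. YY1, a zinc-finger transcription factor, had features at -0.00 ± 0.19 and -0.04 ± 0.35. DYNC1H1, the heavy chain of cytoplasmic dynein, had features at 0.12 ± 0.21 and 0.41 ± 0.42. MEG8 read 1.3 to 17.2 on the SS arrays, under the lowest median signal of any array (47.4), and has no usable level here. Over the 6 locus symbols at the minimum, 4 were higher and 2 lower in CN, with a median of 0.06.

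**Figure D2:**
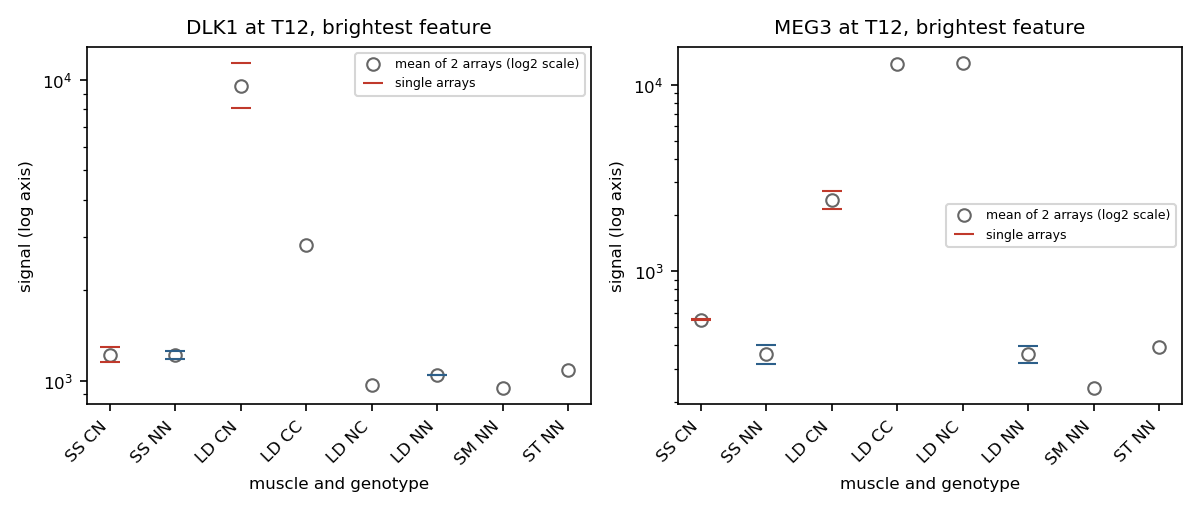
Signal (log axis) of the brightest DLK1 and MEG3 features at T12 by muscle and genotype; circles are means of 2 arrays on the log2 scale, and short lines single arrays (red CN, blue NN), drawn for CN and NN of SS and LD. DLK1 lies at 1149 to 1295 on all 4 SS arrays and at 8064 and 11364 in LD CN.

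The smallest p-values among named SS genes belonged to NMRK2, DNTTIP1 and BNIP3L. NMRK2, a muscle kinase that makes a precursor of NAD, read 1547 and 2063 in CN and 731 and 888 in NN. Its difference was 1.15 ± 0.23, a 2.22-fold higher CN mean, with limma adjusted p = 0.338. DNTTIP1, a partner of histone deacetylase complexes, read 2163 and 2574 in CN and 896 and 900 in NN. Its difference was 1.39 ± 0.30 (limma adjusted p = 0.381). Both were also higher in CN in LD, by 0.65 for NMRK2 and 1.18 for DNTTIP1, and neither passed the test there. BNIP3L, a receptor that marks mitochondria for removal by autophagy, read 707 and 737 in CN and 1360 and 1707 in NN. It lay lower in CN by -1.08 ± 0.29 (limma adjusted p = 0.718). The SE of BNIP3L from technical arrays alone was larger, at 0.40, as it also was for some genes below, such as SCN4B and NARS1.

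The others of the 10 smallest p-values had limma adjusted p between 0.797 and 0.845. AK1, adenylate kinase, was higher in CN, with 9277 and 11502 against 6554 and 6982 in NN (0.61 ± 0.18). SCN4B, a sodium channel subunit, was also higher (0.87 ± 0.26). NARS1, the asparagine transfer RNA synthetase, differed by 1.17 ± 0.35, but its NN arrays read 209 and 74 and so differed widely. ACAT1, a mitochondrial enzyme of ketone and isoleucine breakdown, was lower in CN, with 8511 and 7856 against 12151 and 12084 (-0.57 ± 0.16). ANAPC13, a subunit of the anaphase-promoting complex, was lower (-0.81 ± 0.23). KCNMA1, a calcium-activated potassium channel, was lower for 1 feature (-0.81 ± 0.23), while its other 2 features lay at 0.16 and 0.06. BOLA-DRA, a class II antigen chain, was lower (-1.12 ± 0.33). In LD AK1 (0.22), ACAT1 (-0.27), BOLA-DRA (-0.33) and the lower KCNMA1 feature (-0.17) lay on the same side. SCN4B (-0.05), NARS1 (-0.21) and ANAPC13 (0.08) lay on the other side there.

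**Figure D3:**
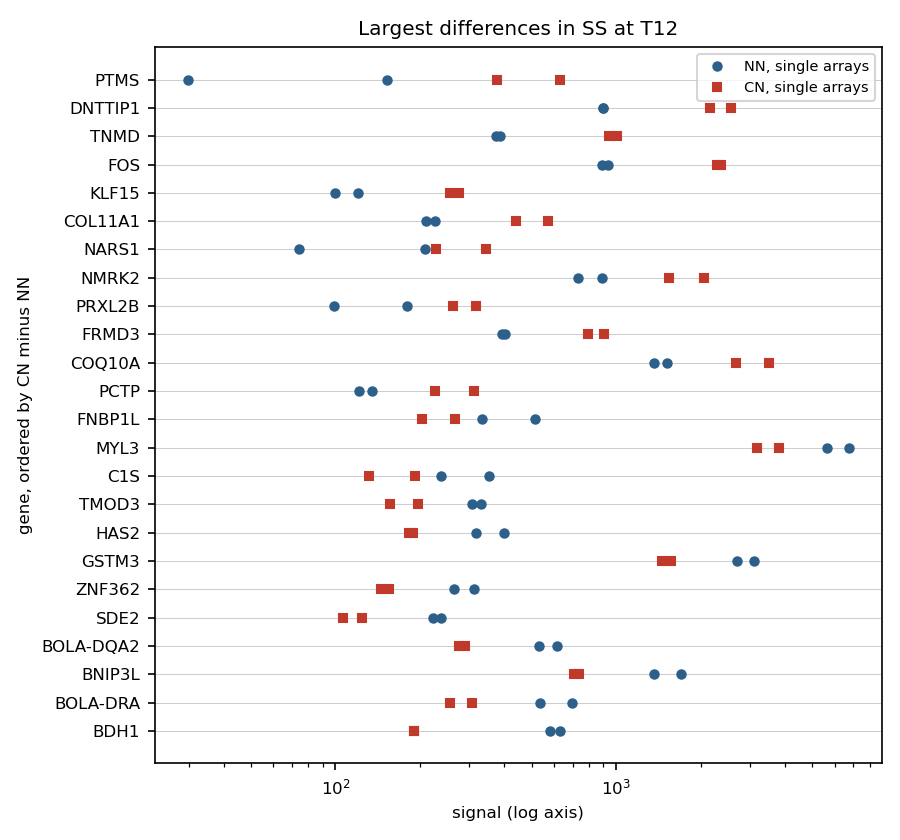
Signal (log axis) of the 12 genes with the largest higher and the 12 with the largest lower CN minus NN difference, at the brightest feature of each; blue circles are the 2 NN arrays and red squares the 2 CN arrays. From PTMS (377 and 631 in CN, 30 and 152 in NN) to BDH1 (191 and 190 in CN, 633 and 579 in NN) no gene has overlapping arrays, which the rule for these genes required.

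By size, PTMS, parathymosin, a small acidic nuclear protein, had the largest difference, at 2.86 ± 0.88. Its NN arrays read 152 and 30, the second of them under 47.4, so its size is uncertain. In LD PTMS went the other way, at -2.26, with CN arrays at 65.4 and 32.5. FOS, a subunit of the AP-1 transcription factor, read 2354 and 2281 in CN and 932 and 887 in NN (1.35 ± 0.99). A second FOS feature lay at 1.12. FOS varied widely among the LD genotypes, with means of 4275 in CN, 7907 in CC, 2032 in NC and 1719 in NN. KLF15, a transcription factor responsive to glucocorticoids, read 276 and 256 in CN and 121 and 99.9 in NN (1.28 ± 0.67). COQ10A, a coenzyme Q binding protein, read 2681 and 3508 in CN and 1523 and 1369 in NN (1.09 ± 0.33). The differences of PRXL2B, FRMD3 and PCTP, a phosphatidylcholine transfer protein, were 1.10, 1.09 and 1.05.

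Among the lower genes, BDH1, the mitochondrial enzyme that interconverts ketone bodies, had the largest difference at -1.67 ± 1.23. The CN arrays read 191 and 190 and the NN arrays 633 and 579. In LD its means were 4.49 in CN and 30.6 in NN, both under 47.4. GSTM3, a glutathione transferase, read 1455 and 1567 in CN and 2685 and 3105 in NN (-0.94 ± 0.41). HAS2, a hyaluronan synthase, and TMOD3, which caps actin filaments, differed by -0.93 and -0.86. C1S, a complement protease, and FNBP1L, a membrane-bending protein, differed by -0.86 and -0.83. SDE2 read 124 and 106 in CN and 223 and 237 in NN, and ZNF362 differed by -0.94.

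Genes of the fast-fibre sarcomere were mostly higher in CN, by small amounts. Of 10 at the minimum, 8 were higher and 2 lower, and 7 had both CN arrays above both NN arrays. Over all 3292 symbols, 627 (19%) had arrays apart with CN higher and 657 (20%) with CN lower. The fast list had a median of 0.15, against -0.00 for all symbols, and 0.08 after quantile normalisation. ACTN3, the fast-fibre alpha-actinin, read 5782 and 5330 in CN and 4496 and 3963 in NN (0.40 ± 0.19). TNNI2 and TNNT3, fast troponins I and T, differed by 0.21 and 0.18. ATP2A1, the fast calcium pump, differed by 0.25, and MYLK2, the skeletal myosin light chain kinase, by 0.59 ± 0.58.

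Genes of the slow-fibre sarcomere were near equal in SS except for MYL3. Of 12 at the minimum, 7 were higher and 5 lower, with a median of 0.05 that became -0.01 after quantile normalisation. In LD all 12 were lower in CN, with a median of -0.55. MYH7 read 35980 and 42244 in CN and 36864 and 37598 in NN (0.07 ± 0.18), while in LD it was lower in CN by -0.89 (limma adjusted p = 0.0492). This feature gave the highest signal on the second CN array. A dimmer MYH7 feature read 2554 and 2856 in CN and 1990 and 2350 in NN (0.32 ± 0.24), and lay at 0.12 in LD. TNNT1, slow troponin T, differed by -0.09 in SS and -0.97 in LD. The brightest MYH7 feature and TNNT1 had means of 38986 and 27546 in SS CN, against 13430 and 9312 in LD CN. Whether a limit at the top of the measured range narrowed their SS differences was not tested. MYL3, a light chain of slow and ventricular myosin, was the exception, with 3178 and 3789 in CN and 5616 and 6749 in NN (-0.83 ± 0.52). It was lower in CN in LD as well, by -2.19.

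The embryonic and neonatal sarcomere list had 5 members at the minimum, 2 higher and 3 lower, with a median of -0.01, which was -0.16 with a minimum signal of 100 and 0.15 with 400. MYOG, a myogenic transcription factor, differed by -0.35 and MYH8, the perinatal myosin, by -0.30. ACTC1, cardiac actin, lay at 0.18, IGF2 at 0.15 and MYF6 at -0.01. Of the calcium handling list, 6 of 11 were higher and 5 lower, with a median of 0.04. JPH1, which joins the sarcoplasmic reticulum to the transverse tubule, differed by 0.33 and RRAD, a GTPase that inhibits calcium channels, by -0.24. HRC, a calcium-binding protein of the reticulum, lay at 0.17.

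Genes of glycolysis and glycogen use were mostly higher in CN. Of 17 at the minimum, 14 were higher and 3 lower, and 10 had arrays apart with CN higher against 1 with CN lower. For all symbols these shares with arrays apart were 19% and 20%. The list median was 0.34, and 0.20 after quantile normalisation. It was 0.30 to 0.37 when 1 SS array was left out. None passed the test. PGK1, phosphoglycerate kinase, read 6685 and 5378 in CN and 3777 and 3225 in NN (0.78 ± 0.44). PFKM, the muscle phosphofructokinase, read 7355 and 6726 in CN and 5044 and 4993 in NN (0.49 ± 0.21), and its other 2 features lay at 0.41 and 0.50. PGM1, which links glycogen to glycolysis, differed by 0.49 ± 0.17, and its other feature by 0.47. PPP1R3C, a glycogen-targeting phosphatase subunit, was the member that stood lower, with 982 and 804 in CN and 1365 and 1288 in NN (-0.58 ± 0.26). In LD the list's median was 0.20.

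Genes of mitochondrial fuel use lay slightly lower. Of 74 oxidative phosphorylation genes 62 were lower and 12 higher in CN, and 18 had arrays apart with CN lower against 2 with CN higher. Over all 3292 symbols 1655 were lower and 1637 higher. Arrays apart were seen for 20% of all symbols with CN lower and 19% with CN higher. The list median was -0.08, with a range of -0.15 to -0.01 when 1 SS array was left out. Its smallest size was without the first CN array. NDUFC1 and NDUFA9, subunits of complex I, had differences of -0.31 and -0.25. NDUFS5 and NDUFA3, also of complex I, lay at -0.26 and -0.24. The LD median of this list was -0.20. The lists are described by counts and medians only, and no list was tested.

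Of 20 genes of the TCA cycle and pyruvate use, 14 were lower and 6 higher, with a median of -0.07. DLAT, a pyruvate dehydrogenase component, read 1913 and 2017 in CN and 1309 and 1374 in NN (0.55 ± 0.21), though its other features lay at 0.34 and 0.10. PDHX, which binds a component of the same complex, was lower, at -0.48 ± 0.21. MDH2, malate dehydrogenase, differed by -0.30 and IDH3A, a subunit of isocitrate dehydrogenase, by 0.37, with overlapping arrays.

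Of 22 genes of fatty acid uptake and oxidation, 17 were lower and 5 higher, and 10 had arrays apart with CN lower against 2 with CN higher. For all symbols these shares with arrays apart were 20% and 19%. The list median was -0.18, and -0.10 without the first CN array. CD36, a fatty acid transporter, read 4397 and 4721 in CN and 6932 and 7998 in NN (-0.71 ± 0.26). PPARGC1A, a coactivator of mitochondrial genes, was higher, at 0.65 ± 0.29, and its other feature lay at 0.16. ACADM, medium-chain acyl-CoA dehydrogenase, had arrays that overlapped, with 4501 and 1653 in CN. In LD the median of this list was -0.42.

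Tendon and cartilage-type matrix genes had the largest list median. Of 8 at the minimum, 7 were higher and 1 lower, all with arrays apart. For all symbols the shares with arrays apart were 19% with CN higher and 20% with CN lower. The list median was 0.74. It was 0.68 to 0.76 when 1 SS array was left out. TNMD, tenomodulin, a marker of tendon cells, read 946 and 1005 in CN and 373 and 387 in NN (1.36 ± 0.67). COL11A1, a minor fibrillar collagen of cartilage, read 441 and 572 in CN and 209 and 226 in NN (1.21 ± 0.69). Its other fitted features, below the minimum, lay at 0.68 with overlapping arrays, 1.06, and -2.25 on signals of 3.1 to 45.4. FMOD, fibromodulin, a collagen-binding proteoglycan, read 940 and 869 in CN and 534 and 444 in NN (0.89 ± 0.37). THBS1 and THBS4, thrombospondins of the matrix, differed by 0.89 and 0.59, and further THBS1 features by 1.07 and 0.31. TNXB, a tenascin, was lower at -0.32, while CLU and PRG4, lubricin, lay at 0.14 and 0.07.

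The summed signal of the 15 tendon-list genes on the array was 12634 and 14380 in CN and 9147 and 9223 in NN, and none was under 47.4. The part of tendon or other connective tissue in the samples in this result was not tested. The LD median of the list was -0.20. TNMD in LD had means of 124 in CN, 572 in CC, 187 in NC and 167 in NN, so it varied several-fold among genotypes without the phenotype.

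The extracellular matrix and fibroblast list was mixed, with 11 of 24 higher and 13 lower and a median of -0.03 that turned to 0.07 with a minimum signal of 100 or 400. COL12A1, a collagen that binds to the surface of fibrils, read 567 and 615 in CN and 285 and 300 in NN (1.01 ± 0.32). CCN2, connective tissue growth factor, read 3539 and 4638 in CN and 2367 and 2716 in NN (0.68 ± 0.24). SPARC, a collagen chaperone, differed by 0.49 and COL1A1, the main chain of type I collagen, by 0.46. In LD 21 of the 24 were lower in CN, with a median of -0.42. The summed signal of this list was 75838 and 84655 in CN and 74346 and 75393 in NN.

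**Figure D4:**
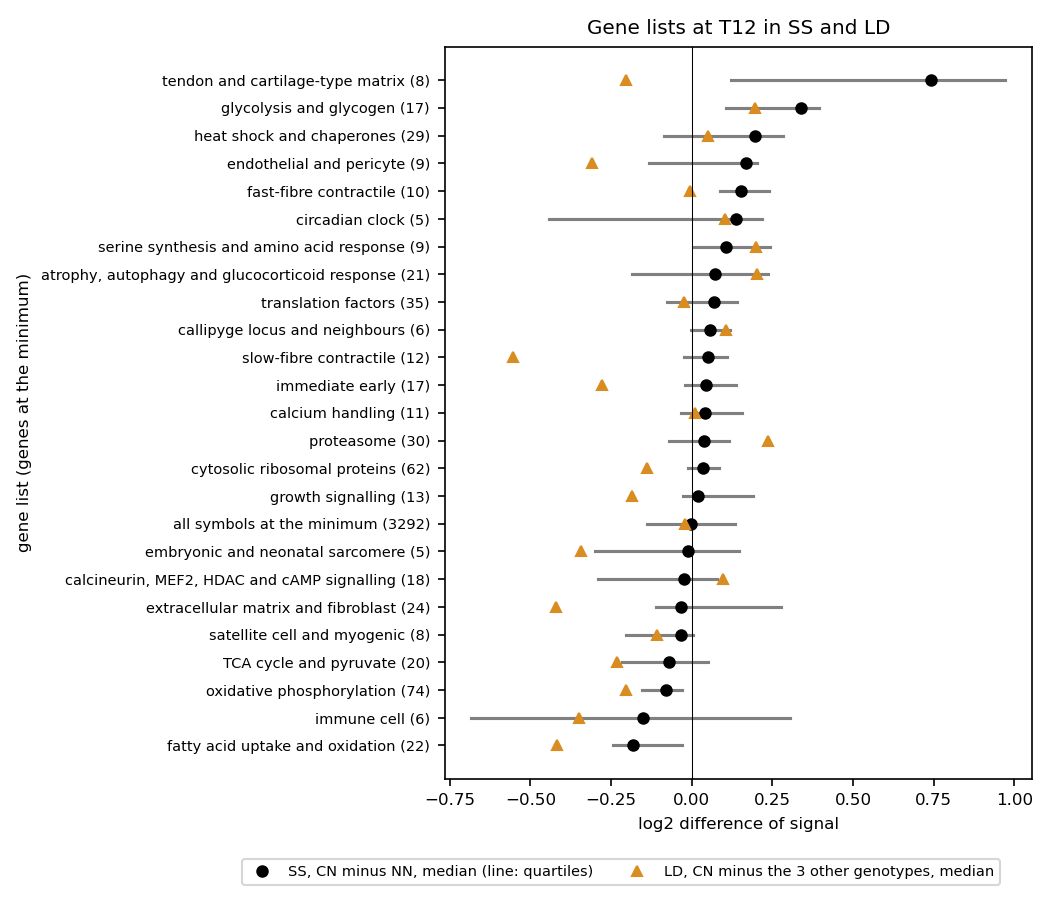
CN minus NN difference (log2) in SS for each gene list with at least 5 genes at the minimum; the black point is the median and the line spans the quartiles, with the number of genes in brackets. Orange triangles give the median in LD of CN minus the 3 other genotypes, for the same genes. The tendon list stands highest in SS at 0.74 and lies at -0.20 in LD, while the slow-fibre list is at 0.05 in SS and -0.55 in LD.

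Class II antigen genes did not go one way. BOLA-DRA read 305 and 256 in CN and 533 and 695 in NN (-1.12). BOLA-DQA2 had 1 feature at -1.01 and another that read 149 and 164 in CN and 260 and 378 in NN, and BOLA-DRB3 lay at -0.73. BOLA-DQB1, in contrast, read 642 and 557 in CN and 313 and 390 in NN (0.77), and BOLA-DQA1 lay at 0.33. DQ and DRB genes are known to vary in sequence between animals and to have closely related copies, so their readings on a bovine array are uncertain. Of 6 immune cell genes at the minimum 3 were higher and 3 lower, with a median of -0.15, which was -0.53 with a minimum signal of 100 and -0.73 with 400. AIF1, a macrophage gene, lay at -0.53 and JCHAIN, of plasma cells, at 0.23. Summed over the 31 immune genes on the array, signal was 3642 and 3769 in CN and 4197 and 4575 in NN, and 7 of the genes, PTPRC and CD2 among them, were under 47.4.

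Markers of other cells lay on both sides. Of 9 endothelial and pericyte genes 6 were higher and 3 lower, with a median of 0.17. CDH5, an adhesion protein of endothelium, lay at -0.64 ± 0.26 and EMCN, endomucin, at 0.46 ± 0.24. The summed signal of that list was 10903 and 11452 in CN and 10992 and 11338 in NN. All 4 adipocyte genes at the minimum were lower, with a median of -0.14. ADIPOQ, adiponectin, was the largest at -0.54, and the summed signal of the list was 2635 to 2772 in CN and 2632 to 3125 in NN. Of the red blood cell list only GYPC reached the minimum (0.22), and HBB, a globin, was under 47.4. The 9 red blood cell genes on the array summed to 2582 and 2939 in CN and 2275 and 2326 in NN, without overlap. Most of each sum was GYPC, at 2247 and 2656 in CN and 2066 and 2131 in NN, and 4 of the 9 were under 47.4. The nerve list had UCHL1 at 0.70 and S100B at -0.37, with a median of 0.16. Its 10 genes summed to 781 to 783 in CN and 699 to 762 in NN, also without overlap. Of these, 5 were under 47.4, and UCHL1 alone read 299 and 322.5 in CN and 175.9 and 208.7 in NN. The part of these cells in the results was not tested.

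Genes of muscle breakdown and glucocorticoid response held KLF15, NMRK2 and BNIP3L, described above. Of 21 at the minimum, 13 were higher and 8 lower, with a median of 0.07. Arrays were apart with CN higher for 9 of the 21 and with CN lower for 6, against 19% and 20% of all symbols. CEBPD, a transcription factor induced by glucocorticoids, read 1340 and 1493 in CN and 938 and 873 in NN (0.64 ± 0.42). FBXO32, the ubiquitin ligase atrogin-1, was 0.24 ± 1.10, and SESN1, a sestrin, was -0.37. Of 30 proteasome genes 18 were higher and 12 lower, with a median of 0.04, against 0.24 in LD. PSMB8 and PSMB1, of the catalytic core, both lay at -0.40.

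Of 29 heat shock and chaperone genes, 20 were higher and 9 lower, and 13 had arrays apart with CN higher against 4 lower. For all symbols these shares with arrays apart were 19% and 20%. The list median was 0.20, and 0.08 without the second CN array. HSPB6, a small heat shock protein of muscle, lay at 0.51 ± 0.27 and DNAJB1, a co-chaperone, at 0.47. HSPA9, the mitochondrial chaperone, was lower at -0.48. HSF1, the heat shock transcription factor, was at 0.40. Of 17 immediate early genes 10 were higher and 7 lower, with a median of 0.04. Beside FOS, KLF10 lay at -0.65, SGK1 at -0.47 and DUSP1 at -0.35, so the list held members on both sides.

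Signalling and growth genes were mixed. In the calcineurin, MEF2, HDAC and cAMP list, 8 of 18 were higher and 10 lower, with a median of -0.02. Its members METTL21E and PRKG1 are given with the LD genes below, PRKACB, a catalytic subunit of protein kinase A, lay at -0.66, and CAMK2D, a calmodulin kinase, at -0.49. Of 13 growth genes 7 were higher and 6 lower, with a median of 0.02. FGF2, a fibroblast growth factor, lay at 0.41 and FST, follistatin, which binds myostatin, at -0.38. MYC lay at -0.29, and IGFBP3, an insulin-like growth factor binding protein, at 0.25. Of 8 satellite cell and myogenic genes 2 were higher and 6 lower, with a median of -0.03.

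Genes of protein synthesis were close to equal. Of 62 cytosolic ribosomal protein genes 46 were higher and 16 lower, with a median of 0.03, and RPL39 and RPL38 lay at 0.37 and -0.35. Of 35 translation factors 23 were higher and 12 lower, with a median of 0.07, and EIF2S3 and EIF3B lay at -0.42 and 0.40. Of 9 genes of serine synthesis and the amino acid response 7 were higher and 2 lower, with a median of 0.11, and ATF4, the transcription factor of that response, lay at 0.31. Of 5 clock genes 3 were higher and 2 lower, with NR1D1 at -0.45, BHLHE40 at -0.44 and RORA at 0.26. Of 4 proliferation genes 1 was higher and 3 lower, with RRM1 at -0.21.

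Small list medians changed sign when 1 SS array was left out. Without the first CN array the median was -0.20 for the clock list, -0.02 for serine synthesis and the amino acid response, -0.01 for the locus, 0.08 for the embryonic list, 0.07 for extracellular matrix and 0.02 for satellite cells. Without the second CN array it was -0.04 for ribosomal proteins, -0.04 for the proteasome, -0.02 for growth signalling and 0.01 for extracellular matrix. Without the first NN array it was -0.02 for the proteasome, -0.01 for atrophy genes and 0.03 for extracellular matrix. Without the second NN array it was -0.08 for serine synthesis and the amino acid response, -0.04 for the locus and 0.03 for the embryonic list. The medians of the slow-fibre, proliferation and immediate early lists crossed 0 as well. The endothelial median kept its sign but was 0.04 without the first NN array and 0.06 without the second, and the adipocyte median was -0.24 and -0.25 without the first and second CN arrays.

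The features that separated CN from the other genotypes in LD were then read in SS. Limma called 28 of 15613 features in LD at T12 (0.179%), 6 higher and 22 lower in CN. LD CN is also 1 value, so these calls do not separate genotype from the animals or pools sampled. Some of the lower ones rest on 2 LD CN arrays that disagree, such as MPDZ (1.1 and 93.3), SHMT2 (3.7 and 136.5) and TRAPPC9 (118.3 and 4.7). In SS, 17 of the 28 lay on the same side, all 6 of the higher and 11 of the 22 lower. The SS arrays took no part in choosing them, apart from the shared spread, but the SS and LD samples may share lambs. Of the 14 that reached the minimum in SS, 12 lay on the same side, and 9 of these had arrays apart. None of the 14 had arrays apart on the opposite side. Those of the 28 below the minimum lay on both sides. The same-side share over all features was not counted, so these counts have no baseline. Over all 3292 symbols, 19% had arrays apart with CN higher and 20% with CN lower. The sizes were smaller, with a median absolute difference over the 14 of 0.30 in SS and 1.40 in LD.

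METTL21E, a muscle lysine methyltransferase, read 1000 and 1236 in CN and 658 and 718 in NN in SS (0.69 ± 0.41), against a difference of 2.34 in LD. Its other SS feature lay at 0.27. The level in SS NN was itself above the mean of 149 in LD NN. A feature with no symbol read 324 and 275 in CN and 101 and 72.1 in NN (1.81 ± 0.46), against 3.41 in LD. PARK7, a redox-sensitive chaperone, overlapped between the genotypes in SS (0.07 ± 0.20) and was higher in LD CN by 1.26. PLCL2, a phospholipase C-like protein, lay at 0.26 in SS and 1.44 in LD.

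Of the lower LD genes, FRZB, a secreted inhibitor of Wnt signalling, read 526 and 482 in CN and 850 and 901 in NN (-0.80 ± 0.24), against -1.35 in LD. PRKG1, the cGMP-dependent kinase, read 325 and 306 in CN and 536 and 451 in NN (-0.64 ± 0.31), against -1.96. AKR1C4, an aldo-keto reductase, lay at -0.54 in SS, its other feature at -0.58, and at -1.62 in LD. ALAD, an enzyme of haem synthesis, lay at -0.43 and -1.26, and VEGFA, an angiogenic growth factor, at -0.35 and -0.96. ATP5IF1, the inhibitor of ATP synthase, overlapped in SS (-0.13) and lay at -0.85 in LD. CSN2 read 748 and 6252 on the 2 CN arrays and 2055 and 1932 in NN, so its SS difference rests on arrays of 1 RNA that disagree.

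**Figure D5:**
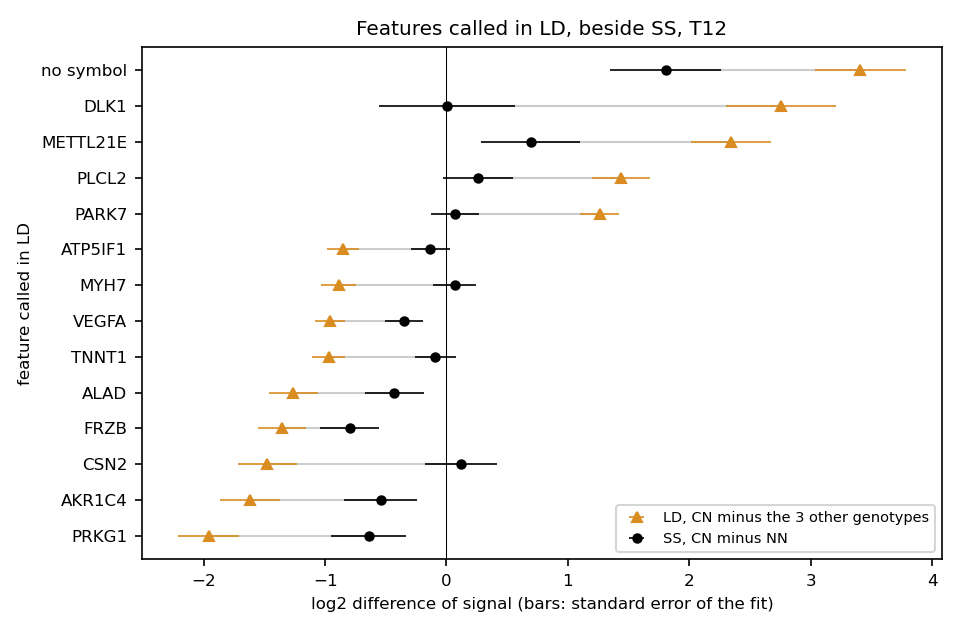
CN minus NN difference (log2) in SS (black circles) beside CN minus the 3 other genotypes in LD (orange triangles) for the 14 features that were called in LD at T12 and reached the minimum in SS; bars are the SE of the fit. DLK1 lies at 0.00 in SS and 2.76 in LD, and FRZB at -0.80 and -1.35.

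The difference between the muscles was tested for each feature. Limma called 0 of 15613 features (0%) for the SS difference against the LD difference, with 775 at an unadjusted p under 0.05 and a smallest adjusted p of 0.341. Over all fitted features it called 4 without the first LD CN array, 2 without the second, 2 without the first SS CN array and 1 without the second. Over the 5303 features the SS difference and the LD difference against the 3 other genotypes correlated at r = 0.278 and rho = 0.272. The points share the fit and the array platform but not the arrays, and features are not independent. The labels name no animal for SS, so whether the SS and LD samples share lambs is not known. Likeness by genotype and likeness by shared animals cannot be told apart. Of the 34 features with at least 2-fold SS differences, 24 had the same sign in LD. The same-sign share over all 5303 features was not counted, so the 24 have no baseline. Both muscles had arrays apart for 485 features, of which 388 went the same way and 97 opposite ways. Of the 97, 59 were higher in CN in SS and lower in LD. Those 59 include FMOD, with a difference between the muscles of 1.95 ± 0.48, and SPARC and COL1A1, at 1.30 and 1.38.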

How the data were processed

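Total RNA (5 µg per labelling, per the labels' protocols) was hybridised to the arrays as biotin-labelled cRNA. The deposited values are linear signal intensity per probe set, which the submitters' processing notes credit to MAS5 without a version. The authors' scaling brought the 4 SS arrays to means of 200.0 to 200.5 after the highest and lowest values were trimmed. Values under 1 were set to 1, log2 was taken, and the 2 technical arrays of a group were averaged. With 1 value per genotype in SS, precision is limited by the samples and not only by the number of arrays.

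Limma 3.58.1 in R 4.3.3 (lmFit, eBayes with trend, two-sided, Benjamini-Hochberg) was fitted to 12 group values in 8 cells over 15613 features above their group's median signal in at least 1 group. CC, NC and NN of LD formed 1 cell at each age, which left 4 residual degrees of freedom (prior 6.88). 112 control features were left out. Contrasts were CN minus NN in SS, CN minus CC, NC and NN in LD at T12, and their difference. The script was tested on simulated data.

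Names came from the platform annotation of 2016. The 28 gene lists hold 854 genes, of which 676 are on the array, and the brightest feature at the minimum stood for a symbol. Genes were named by rule: the 10 smallest p-values, the 12 largest differences each way with arrays apart, all locus features, up to 4 genes of largest difference per list (all of a list of 8 or fewer), and genes called in LD; values of further features of these genes, and some further list members, were chosen after their values were seen. The members, lists and tests were chosen with earlier results of these data known. Alternatives were quantile normalisation, a floor of 16, other signal minimums, no filter on dim features, single arrays, CC left out and each array left out. No sequences are printed, since no sequence table or genome was used here.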

Additional observations from a re-analysis of the deposited data

Results flagged for a closer look

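A set of 9 named genes had both CN arrays above both NN arrays in SS and both CN arrays below the other genotypes' arrays in LD at T12. The difference between the muscles was tested for each by limma, and none passed after adjustment. It is CN minus NN in SS, less CN minus the mean of CC, NC and NN in LD. On the log2 scale it was 2.43 for TNMD, 1.95 for FMOD, 1.43 for ACTC1, 1.38 for COL1A1, 1.30 for SPARC, 1.12 for CCN2, 0.75 for EIF3B, 0.73 for TPM3 and 0.73 for FGF2. The 2 sides thus have unlike comparators. In LD, TNMD lay at -1.07 against the 3 genotypes and -0.43 against NN alone. FMOD lay at -1.06 and -0.70, and SPARC, the other way, at -0.815 and -0.99. The smallest unadjusted p was 0.00179, for FMOD (limma adjusted p = 0.534). These 9 came from 135 features of named genes checked, and in all 97 of 485 features with arrays apart in both muscles went opposite ways. The second TPM3 feature lay at -0.01 in SS, with overlapping arrays.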

How the results depend on the processing

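Quantile normalisation, a floor of 16, no filter on dim features and other signal minimums left 0 calls in SS. Without 1 SS array 5 to 12 of all fitted features were called, and 0 of the 5303 SS features. The count of 2-fold differences with arrays apart was 104 with a minimum signal of 100 and 19 with 400, against 34, and 41 to 56 when 1 SS array was left out. When single arrays were fitted, so that the spread was that between technical arrays only, 18 features were called between these SS samples (12 higher, 6 lower), with FOS, DNTTIP1, COQ10A, GSTM3, TNMD, NMRK2, FRZB, MYL3, FMOD, PFKM and COL12A1 among them. That fit compares the RNA samples and not the genotypes. With the replicate block it called 22, of which 18 were shared. For the difference between the muscles the single-array fit called 33, and 37 with the replicate block. The labels do not say whether array numbers mark a shared batch. Array 1 minus array 2 correlated at r = 0.279 between CN and NN, with 1 pair of groups. Arrays of like number correlated at r = 0.9787 and 0.9782 across genotypes, and those of unlike number at 0.9743 and 0.9724. Without CC the difference between the muscles had 1 call, DLK1, and without 1 array it had 0 to 1 among the 5303 SS features (CSN2, without the first SS CN array) and up to 4 over all fitted features. The cause of these changes was not tested. Values near 0 changed sign. YY1 was 0.013 after quantile normalisation and -0.25 to 0.24 when 1 SS array was left out, and its other feature -0.19 to 0.10. The like ranges were -0.13 to 0.35 for PPP2R5C, -0.083 to 0.090 for DLK1, -0.11 to 0.35 for DYNC1H1, -1.41 to 1.65 for CSN2, -0.049 to 0.18 for MYH7, -0.032 to 0.17 for PARK7, -0.40 to 0.14 for ATP5IF1 and -0.16 to 0.34 for the third MEG3 feature. Of 312 values of 52 named results, 298 kept their direction. Of 223 list medians under the alternatives, 24 changed sign. Features near the minimum signal are limited by signal over background.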
